A study of Drosophila melanogaster with 2 samples.

Results

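The regions described are the 373 peaks of the btn-eGFP embryo map whose summit lay in an intron, more than 1000 bp and at most 5000 bp from the nearest transcription start site (TSS) of a protein-coding gene. They were taken from 2153 peaks that the authors called optimal, a list thresholded by irreproducible discovery rate (IDR), a measure of reproducibility. The sources used do not state the threshold, and the agreement of the 2 replicates over the members is described below. A peak was kept when its summit fell inside a protein-coding gene and in no exon of any annotated transcript, so the members make up 17.3% of the optimal peaks (exact 95% binomial interval 15.7 to 19.0). Each is compared with 3695 background candidates, which are weaker regions of the authors' pooled list that met the same position rule and overlapped no optimal peak. Intervals cover counting error over regions only, since regions of 1 chromatin sample are not replicates.

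All samples came from a transgenic Drosophila melanogaster line, labelled btn-GFP, that stably expresses buttonless (btn) with eGFP fused to its C-terminus. Whole embryos of both sexes were pooled at 0 to 14 h, chromatin was sonicated to fragments of 200 to 800 bp, and the DNA was recovered with an antibody against GFP. The study has 1 group of 2 biological replicates, numbered 2 and 3 as in the labels. Embryos without the tag were not analysed here, so recovery through btn was not separated from recovery by the antibody or the chromatin alone, and all peaks come from the same line. A region used in few cells and one used weakly in many cells cannot be told apart in whole embryos.

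Buttonless is a homeodomain protein, a class of transcription factor whose DNA-binding domain usually contacts short sites with a TAAT core. In the embryo the gene is known for its role in the dorsal median cells, a small group of mesodermal cells along the midline. Introns close to a start site often hold enhancers, stretches of DNA where several factors bind and raise transcription from a promoter, and alternative promoters further along a gene can place such an intron upstream of one start and downstream of another.

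The 6 strongest members are shown first, because they carry the highest signal and differ in composition around the summit. Each line gives the summit base with 100 bp on either side, on the plus strand of dm6, read from the RefSeq Release 6 genome. Capitals mark GAGAGAG (the GAGA repeat bound by Trithorax-like and Pipsqueak), TAATTA (a homeodomain core site), CAGGTAG (a Zelda site) and TGTTTAC (a forkhead site) or the same words read from the other strand. The ush, cno and CG32772 summits hold none of these words, CG11050 holds TAATTA at 2 places, NFAT holds it once, and Tlk holds the GAGA repeat 59 bp from its summit.
ush (chr2L:480975-481175): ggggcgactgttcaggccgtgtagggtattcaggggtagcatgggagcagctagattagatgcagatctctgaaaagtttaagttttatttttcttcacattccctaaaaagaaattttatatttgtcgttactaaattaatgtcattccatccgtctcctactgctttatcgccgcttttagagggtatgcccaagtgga
CG11050 (chr2L:6612612-6612812): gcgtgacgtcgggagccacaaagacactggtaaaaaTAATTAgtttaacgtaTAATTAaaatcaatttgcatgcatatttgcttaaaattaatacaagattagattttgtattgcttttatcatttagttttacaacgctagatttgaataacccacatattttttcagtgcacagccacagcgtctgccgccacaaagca
cno (chr3R:5215430-5215630): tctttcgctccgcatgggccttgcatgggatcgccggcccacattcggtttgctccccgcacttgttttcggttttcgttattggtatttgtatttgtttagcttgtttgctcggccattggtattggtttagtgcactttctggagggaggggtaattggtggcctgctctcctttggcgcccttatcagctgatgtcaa
CG32772 (chrX:4910269-4910469): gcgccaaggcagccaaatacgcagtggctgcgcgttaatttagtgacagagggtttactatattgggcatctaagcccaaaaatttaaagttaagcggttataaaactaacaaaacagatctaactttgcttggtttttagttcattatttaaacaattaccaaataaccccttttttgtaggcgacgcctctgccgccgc
Tlk (chrX:3742139-3742339): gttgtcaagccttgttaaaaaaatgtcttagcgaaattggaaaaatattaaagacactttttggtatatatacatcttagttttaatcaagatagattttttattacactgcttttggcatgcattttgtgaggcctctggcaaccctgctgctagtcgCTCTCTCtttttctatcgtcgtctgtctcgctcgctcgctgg
NFAT (chrX:13640414-13640614): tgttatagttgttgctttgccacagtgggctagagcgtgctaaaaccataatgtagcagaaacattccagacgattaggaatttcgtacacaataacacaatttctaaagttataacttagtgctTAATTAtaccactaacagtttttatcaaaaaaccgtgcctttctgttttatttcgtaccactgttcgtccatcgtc

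Further members are shown as examples of the words themselves. Trl and Csk hold the forkhead site 40 and 13 bp from the summit, sima holds the GAGA repeat 55 bp away, and Nep1 holds the Zelda site 6 bp away. The forkhead pair was added after its values were seen.
Trl (chr3L:14759417-14759617): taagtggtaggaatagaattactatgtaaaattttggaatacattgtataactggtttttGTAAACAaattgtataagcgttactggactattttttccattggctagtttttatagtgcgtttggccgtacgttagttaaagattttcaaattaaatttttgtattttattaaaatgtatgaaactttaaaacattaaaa
Csk (chr3R:11649588-11649788): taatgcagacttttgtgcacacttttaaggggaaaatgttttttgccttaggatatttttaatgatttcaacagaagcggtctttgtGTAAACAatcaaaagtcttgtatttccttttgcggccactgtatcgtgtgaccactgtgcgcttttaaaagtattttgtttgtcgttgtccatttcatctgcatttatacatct
sima (chr3R:30061245-30061445): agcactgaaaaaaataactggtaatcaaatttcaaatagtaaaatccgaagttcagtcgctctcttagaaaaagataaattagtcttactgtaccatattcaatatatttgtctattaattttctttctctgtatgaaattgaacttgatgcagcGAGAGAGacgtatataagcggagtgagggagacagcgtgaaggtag
Nep1 (chrX:6097645-6097845): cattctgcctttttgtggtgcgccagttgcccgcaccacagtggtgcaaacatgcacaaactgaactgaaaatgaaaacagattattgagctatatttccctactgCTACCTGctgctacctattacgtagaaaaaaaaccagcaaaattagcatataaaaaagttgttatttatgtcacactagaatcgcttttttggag

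The optimal peaks fell into this intronic zone more often than the background did. Of 27394 background candidates anywhere in the genome, 13.5% met the position rule, which is 3.84 percentage points below the share of the optimal peaks (95% interval of the difference 2.24 to 5.54). Read the other way, 373 of the 4126 pooled candidates in the zone were optimal, a share of 9.04%, against 7.18% of all 30000 pooled candidates. Candidates within 200 bp of a TSS were optimal in 14.8% of cases, those 200 to 1000 bp away in 6.79%, intronic ones beyond 5000 bp in 6.49%, intergenic ones in 5.95% and exonic ones beyond 1000 bp in 1.31%. The zone covers 17.4 Mb and held 21.5 members per Mb, compared with 9.18 per Mb in introns further away and 8.34 per Mb between genes. Optimal peaks were denser nearer to start sites, at 24.0 per Mb at 200 to 1000 bp and 102 per Mb within 200 bp. Background candidates were also denser in the zone, at 213 per Mb, than in introns further away (131) and between genes (131). Within the zone, the share of candidates that were optimal was 10.04% (8.62 to 11.6) up to 2000 bp from the TSS, 8.504% (6.87 to 10.4) from there to 3000 bp, 8.52% from there to 4000 bp and 8.81% up to 5000 bp, with intervals that overlapped.

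The peak signal, the authors' own value per region and used here only to describe and rank, ranged from 70.8 to 1116 with a median of 104.7. Most members were modest: 170 had a signal under 100, 163 lay between 100 and 200, 27 between 200 and 300, and 13 reached 300 or more. Median signal in the other classes was 102 within 200 bp of a TSS, 115.3 at 200 to 1000 bp, 93.8 in introns beyond 5000 bp and 103 between genes. The members hold 12 of the 100 strongest optimal peaks. Since signal decided which candidates were optimal, their contrast with the background in signal is not a result. The weakest members were in CrebA and dia, both at 70.8, and the strongest candidates just below the line were in px at 70.4 and CG42353 at 70.3.

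The strongest member lay in the first intron of ush, which encodes the U-shaped cofactor of GATA factors. Its signal was 596 in replicate 2, 520 in replicate 3 and 1116 in the pool, and it had rank 3 among all candidates of each replicate. The nearest TSS, 1387 bp away, belongs to cbt, which encodes a zinc-finger transcription factor. Next came CG11050, with 418 in replicate 2, 423 in replicate 3 and 837 in the pool. Its summit sat 69 bp from a splice site in an intron of only 140 bp, so the called region reaches into the neighbouring exons. The third was in the first intron of cno, the afadin homologue of adherens junctions, with 283 in replicate 2, 348 in replicate 3 and 629 in the pool. For all 3 regions the replicates stood close together relative to the distance from the bulk of the members.

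The remaining regions among the 12 strongest lay in CG32772 (536 in the pool), Tlk (493), NFAT (471), Raf (427), ImpL2 (372), CG3726 (353), CG9837 (351), for (320) and kirre (311). Tlk encodes the Tousled-like kinase, Raf the kinase that relays signals of receptor tyrosine kinases to the MAP kinase cascade, and ImpL2 a secreted protein that binds insulin-like peptides. The gene for encodes a cGMP-dependent protein kinase, and kirre an immunoglobulin-domain protein that muscle founder cells use to attract fusing myoblasts. Of the 12, 6 were on the X chromosome: CG32772, Tlk, NFAT, Raf, CG3726 and kirre. In 11 of the 12 the nearest TSS was that of the gene holding the intron, the exception being the ush intron.

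All but 1 of the members had an overlapping candidate in both replicates: 372 in replicate 2 and 373 in replicate 3. Median signal was 52.5 in replicate 2 (quartiles 41.0 and 73.1) and 55.1 in replicate 3 (quartiles 42.9 and 76.2). Across the 372 members, which share their libraries, signal in the replicates had a Spearman correlation of 0.590, and the log2 values a Pearson correlation of 0.690. Among the 2153 strongest candidates of a replicate taken alone, 322 members were found in replicate 2, 309 in replicate 3, 262 (70.2%) in both and 4 in neither. The matching share in both was 68.9% within 200 bp of a TSS, 76.5% at 200 to 1000 bp, 59.0% in introns beyond 5000 bp and 71.9% between genes. Summits of the 2 replicates lay a median of 29 bp apart, and 267 members (71.8%) had them within 50 bp.

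**Figure D1:**
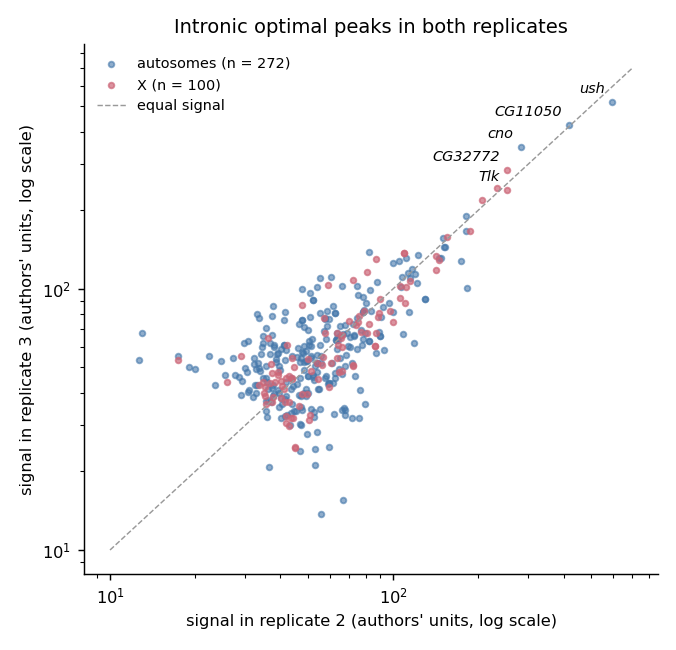
Each point is 1 of the 372 members found in both replicates, with the authors' signal in replicate 2 on the x axis and in replicate 3 on the y axis, both on log scales; red points are on X, and the dashed line marks equal signal. The 5 strongest members are named and lie near the line, while the spread is wide below a signal of 100.

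In 26 members the replicate signals differed by over 2-fold. The largest differences in rank favouring replicate 2 were in oys (55.4 in replicate 2 and 13.8 in replicate 3), CG32264 (66.8 and 15.6) and CG8745 (53.1 and 21.2). Those favouring replicate 3 were in EcR (12.7 in replicate 2 and 53.5 in replicate 3), Cdk4 (12.9 and 67.6) and scrib (17.4 and 55.1). EcR encodes the ecdysone receptor, Cdk4 a cyclin-dependent kinase and scrib a scaffold of epithelial polarity. All 6 had a pooled signal below 90, in the weaker part of the members.

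The members were more often on the X chromosome than the background, a contrast chosen after its values were seen. Of the 373 members, 100 (26.8%, 22.4 to 31.6) were on X, against 17.8% of the background candidates, a difference of 9.00 points (4.57 to 13.9). The zone on X held 28.1 members per Mb, and the 4 large autosome arms held between 15.8 (2L) and 22.1 (2R). Background candidates went the other way, at 185 per Mb on X and between 217 and 229 on the same arms. The small chromosome 4 had 16 background candidates in the zone and 0 members. The same contrast gave 6.24 points (2.70 to 10.2) at 200 to 1000 bp and 5.70 points (0.824 to 11.4) in introns beyond 5000 bp, but -4.44 points (-7.07 to -1.49) within 200 bp of a TSS and 0.410 points (-2.95 to 4.81) between genes. Median signal was 109 for members on X and 104 for the others, and the difference in X share was 7.40 points with replicate 3 alone and 9.28 points with replicate 2 alone.

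The place of the members within the gene also differed from that of the background, toward earlier introns. The ordinal was read in the longest transcript of the host gene whose intron holds the summit. The first intron held 195 members (52.3%) and 47.8% of the background candidates, and the interval of that difference included 0 (4.43 points, -0.886 to 9.70), with 1.96 points from replicate 3 alone and 7.03 points from replicate 2 alone. When the first intron of any transcript of the host was counted, the shares were 78.3% and 64.5%, 13.8 points apart (9.10 to 18.0). The second intron held 32.7% of the members and 27.1% of the background, 5.64 points apart (0.854 to 10.8). The third and later introns held 15.01% of the members, 25.1% of the background and 32.1% of the 34606 windows spaced 500 bp apart across the zone. That difference, singled out after its values were seen, was -10.1 points (-13.6 to -5.86), and it was -9.20 points with replicate 3 alone and -10.6 points with replicate 2 alone.

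Start sites near the members were usually those of the host gene. In 62.7% of the members the nearest TSS was that of the host and the summit lay downstream of it, against 61.1% of the background. In 23.6% the summit lay upstream of an alternative start of the host (18.7% of the background), and in 13.7% the nearest TSS belonged to another gene (20.2% of the background and 26.7% of the windows). An intron before the start codon held 40.2% of the members and 40.8% of the background. The median intron was 9684 bp long for members and 9685 bp for the background, and the median distance to a splice site was 1969 and 1686 bp. Of the members, 16 lay in introns of more than 1 gene, and 11 lay within 1000 bp of a noncoding start site, 10 of them of ncRNAs and 1 of a snoRNA. That is 2.95% of the members, against 2.92% of the background.

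**Figure D2:**
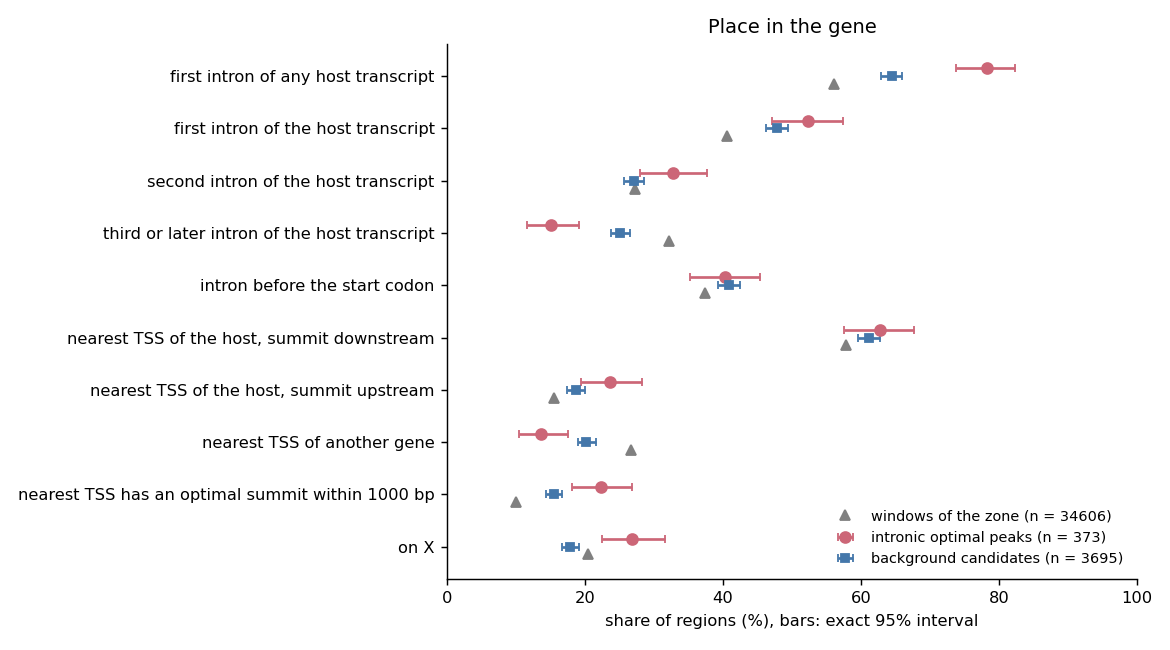
Share of regions, in percent, in each place within the gene, for the 373 members (circles), the 3695 background candidates (squares) and 34606 windows of the zone (triangles, no interval); bars are exact 95% binomial intervals. The members stand below the background in the third and later introns and above it in the share on X and in the share whose nearest TSS also has an optimal summit.

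The TSS nearest to a member was itself marked by an optimal summit within 1000 bp in 83 members (22.3%), against 15.5% of the background candidates and 10.001% of the windows. The difference from the background was 6.77 points (2.67 to 11.4). It was 8.97 points with replicate 3 alone and 9.66 points with replicate 2 alone. Members with such a marked TSS had a median signal of 108 and the others of 103. Of the members, 102 (27.3%) had another optimal summit within 2000 bp, and 24 overlapped the region of another optimal peak; no such share was computed for the background.

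The members fell in 312 protein-coding genes, which is 17% of the 1832 genes with any candidate of the same position rule. A single member was found in 248 of these genes, 2 members in 55 and 3 or more in 9. Because 24 members overlapped the region of another optimal peak, members of the same gene are not always separate sites. Genes with a member had a median length of 21799 bp, and genes with background candidates alone 14343 bp. The part of gene length in the gene counts was not tested.

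The gene with the most members was shn, which encodes a zinc-finger protein of the BMP (Dpp) pathway that represses brk. Its 6 members had pooled signals between 90.2 and 145, all in the second intron, and 5 of them lay upstream of a further shn start. The regions chr2R:11194559-11194968 and chr2R:11194770-11195179 overlap and share 1 region in each replicate list, so they are not separate measurements. Next were Tlk and CG1677 with 4 members each. The Tlk members, at 493, 182, 148 and 88.2, were all in its second intron and all nearest to a start of Tlk. In CG1677 the starts nearest to the members belonged to other genes lying in the same interval, namely unc-119 for 2 members, Atg5 for 1 and CBP for 1.

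Of the genes with 3 members, ush had 1116, 222 and 172, Raf had 427, 168 and 80.3, and CHES-1-like, which encodes a forkhead protein, had 200.0, 156 and 71.7. The gene msn, for a Ste20-type kinase, had 136, 115.3 and 97.3, and Evi5, for a protein with a Rab GTPase-activating domain, had 133, 107 and 81.5. The Raf region at 80.3 was nearest to a start of CG2854, and the Evi5 region at 81.5 to a start of Sk1. Tlk, CG1677, Raf, CHES-1-like and Evi5 are on X.

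Gene groups were read against the 17% of all genes with a candidate. That share was 15.7% with replicate 3 alone, 15.8% with replicate 2 alone and 9.63% among the optimal peaks at or above their median signal. The lists hold genes by textbook role and were drawn up with earlier results of these data known, so their counts are descriptions. A gene was counted when its span held a member, also where the nearest TSS belonged to another gene. Ecdysone response genes had members in 6 of the 9 genes with a candidate. Ecdysone is the insect steroid hormone whose receptor switches on a cascade of further nuclear receptors. Hr3, 1 of those nuclear receptors, held members at 205 and 71.4, Eip63E, which encodes a cyclin-dependent kinase, 1 at 143, and Eip75B, another nuclear receptor, 1 at 114. The other members of the group were in Eip78C, Hr4 and EcR, between 72.3 and 86.6. The median length of the candidate genes in this list was 60654 bp. Over the lists this median ran from 3280 bp (cytoplasmic ribosomal proteins) to 92306 bp (RNA regulators), and the 17% is not matched for gene length. The count was 6 of 11 with replicate 3 alone, 5 of 11 with replicate 2 alone and 3 of 9 among the optimal peaks at or above their median signal.

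Polycomb and trithorax group genes, which keep developmental genes repressed or active through chromatin, had members in 4 of 6. The median length of these candidate genes was 27040 bp. Those with members were Trl (265), which encodes the GAGA factor, trx (149 and 72.1), a histone methyltransferase, ph-p (129 and 74.2), a subunit of Polycomb repressive complex 1, and psq (112 and 76.1), a protein that also binds GAGA repeats. The count was 4 of 6 with replicate 3 alone, 5 of 6 with replicate 2 alone and 4 of 6 among the stronger optimal peaks.

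Signalling pathways also held members, most of them in 1 to 5 genes each. The EGFR pathway had 5 of 15 genes: Raf, aos at 305, a secreted inhibitor of the receptor, S at 259, which helps to traffic the ligand Spitz, aop at 237 and 136, an ETS repressor, and edl at 136 and 101, an antagonist of aop. The TSS nearest to the edl region at 136 was that of CG33136. The EGFR count stayed between 5 and 6 of 15 with either replicate alone and among the stronger peaks. The Notch pathway had 3 of 6: neur (146), a ubiquitin ligase for the ligand, mam (128), a coactivator, and the receptor N (78.5). With replicate 3 alone it was 2 of 7. The BMP list had 3 of 11, shn, sog (132), an extracellular inhibitor of BMP ligands, and wit (148), a receptor. For the wit region the nearest TSS was that of CG32259. Hedgehog had 2 of 4, with the coreceptor boi at 156 and the receptor ptc at 84.7, and the FGF and tracheal list 2 of 6, with the ligand ths at 166 and rib at 165. Wingless had 3 of 11, Notum (80.1 and 79.4), arr (74.3) and nkd, but 1 of 11 with replicate 2 alone and 0 of 10 among the stronger peaks.

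Groups tied to muscle and to the midline gave mixed counts. Myoblast fusion genes had 4 of 8: kirre at 311 and 148 (the latter also inside CG32795, whose TSS is the nearest), mbc at 121 and 85.7, a guanine nucleotide exchange protein acting on Rac, rols at 103 and 98.4, an adaptor in the fusing cells, and siz at 87.3 and 78.4, an Arf exchange factor. Mesoderm and muscle identity genes had 3 of 11, zfh1 at 228, a zinc-finger homeodomain protein, Mef2 at 116 and nau, the MyoD homologue, at 83.5. With replicate 2 alone they had 2 of 14. Muscle structure genes had 0 of 11. Midline and axon guidance genes had 6 of 20, with the netrin gene NetB at 185, the midline regulator sim at 180 and sli, which encodes the repellent Slit, at 105, followed by trio, fra and Ptp10D. For the NetB region the nearest TSS was that of hog. Neuroblast and neuronal fate genes had 1 of 10 (grh at 145), or 2 of 10 with replicate 3 alone, and glial genes 1 of 6 (loco at 92.6).

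The remaining lists ranged from 0 to 5 genes. GATA factors and cofactors had 2 of 5 (ush and GATAd), but 1 of 5 with either replicate alone. The hemocyte and fat body list gave 2 of 6 genes (ush and Pvf3), and RNA regulators gave 5 of 15 (Rbfox1 at 168, pum at 161 and shep at 150 the strongest). Cell junction and polarity genes had 3 of 13 (cno, pyd at 98.4 and scrib), but 1 of 13 with replicate 2 alone. Integrin and basement membrane genes had 2 of 8 (mew at 97.3 and 72.3 and rhea at 95.2), and ion channel and synaptic genes 2 of 9 (dnc at 110.2 and KCNQ at 72.3), or 1 of 12 with replicate 2 alone. Homeobox genes, the class of btn itself, had 3 of 34 (8.82%): zfh1, Antp at 76.1 and lab at 73.7 and 72.2. They had 2 of 36 with replicate 3 alone. Gut regulators had 0 of 6 and cytoplasmic ribosomal protein genes 0 of 1.

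**Figure D3:**
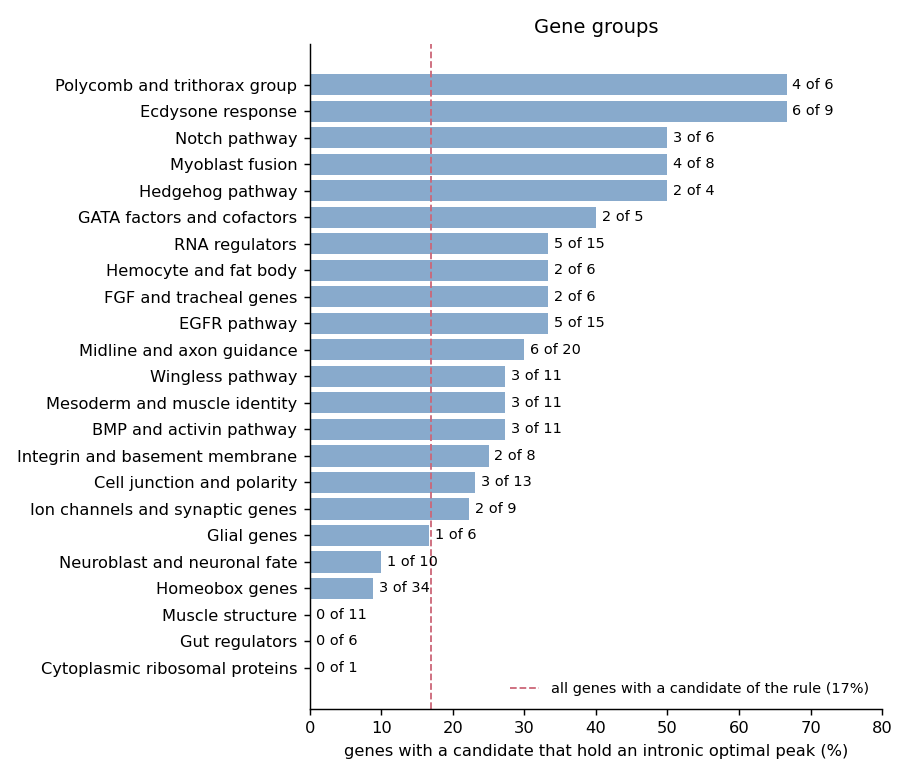
Bars give, for each list shown, the percentage of its genes with a candidate of the position rule that hold at least 1 member, with the counts printed beside them; the dashed line is the 17% over all such genes. Ecdysone response and Polycomb and trithorax genes stand highest. Homeobox, neuroblast and neuronal fate, muscle structure, gut and ribosomal protein genes lie below the line, the last with only 1 candidate gene. Glial genes (1 of 6, 16.7%) lie at about the line. Neuroblast and neuronal fate genes, 1 of 10 here, had 2 of 10 with replicate 3 alone. Most lists rest on fewer than 12 genes.

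The DNA at the summits of the members was poor in G and C and sat between richer flanks, a contrast also chosen after its values were seen. Mean GC content was 34.6% in the 51 bp at the summit and 43.6% in windows 300 bp to either side, a difference of -8.93 points (SD 12.6, n = 373 regions). The summit was lower in 290 members (77.7%). Background candidates had 42.0% at the summit and 42.1% beside it, a difference of -0.0268 points. The dip was -9.78 points in introns beyond 5000 bp, -8.90 between genes, -7.71 at 200 to 1000 bp and -3.999 within 200 bp of a TSS, and the value of the members lay within the range of the other classes away from start sites. It was -7.97 points with replicate 3 alone, -8.93 with replicate 2 alone and -10.6 in the stronger members. Over the whole printed windows, GC content ran from 24.9% in Trl to 50.7% in cno.

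Words were counted within 100 bp of the summit on both strands and compared with the background standardised to the GC content of the members, because the members had a mean of 37.5% (SD 5.61) over these windows and the background 42.3% (SD 7.47). TAATTA, the homeodomain core site, was found in 57 members (15.3%, 11.8 to 19.3). The share was 12.4% in the background, 16.1% after standardisation and 15.2% in the windows of the zone. Its reordered control ATTAAT was in 11.3% of the members and 15.1% of the standardised background. The reordered control TTATAA was in 13.7% of the members and 14.4% of the standardised background, and it exceeded the background as it stands by 3.74 points (0.464 to 7.71). The 2 strongest members with TAATTA are CG11050 and NFAT, printed above, and the third is norpA (280). TAATGG, another site with the TAAT core, was in 9.92% of the members and 10.7% of the standardised background. For TAATTA the members exceeded the background as it stands by 2.83 points (-0.644 to 6.97). After standardisation the difference was -0.842 points, so no excess was found.

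The word with the largest excess over the standardised background was the forkhead site TGTTTAC, singled out after its values were seen. Forkhead proteins are a family of transcription factors that includes FoxA and FoxO types. It was found in 43 members (11.5%, 8.47 to 15.2), against 5.68% of the background, 6.50% after standardisation and 4.74% of the windows. The difference from the background as it stands was 5.84 points (2.88 to 9.55). Within 50 bp of the summit 30 members (8.04%, 5.49 to 11.3) held it, compared with 2.01% (1.13 to 3.29) of windows 300 bp away, and the background had 2.90% and 2.57% at these places. These shares by place are not adjusted for the dip in GC content, and no reordered control of this word was counted. The part of base composition in them was not tested. The excess over the standardised background was 5.03 points, 4.25 with replicate 3 alone and 3.16 with replicate 2 alone. Among other optimal peaks the word was in 9.16% of deep intronic regions, 7.43% of those within 200 bp of a TSS, 5.56% of those at 200 to 1000 bp and 2.96% of intergenic ones. The members differed from the intergenic peaks by 8.57 points (4.58 to 12.5) and from the deep intronic ones by 2.36 points (-2.72 to 7.07). The strongest members holding it were Trl (265) and Csk (235), an inhibitor of Src kinases, both printed above, and Oatp30B (234). Members with the word had a median signal of 103 and those without of 105.

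**Figure D4:**
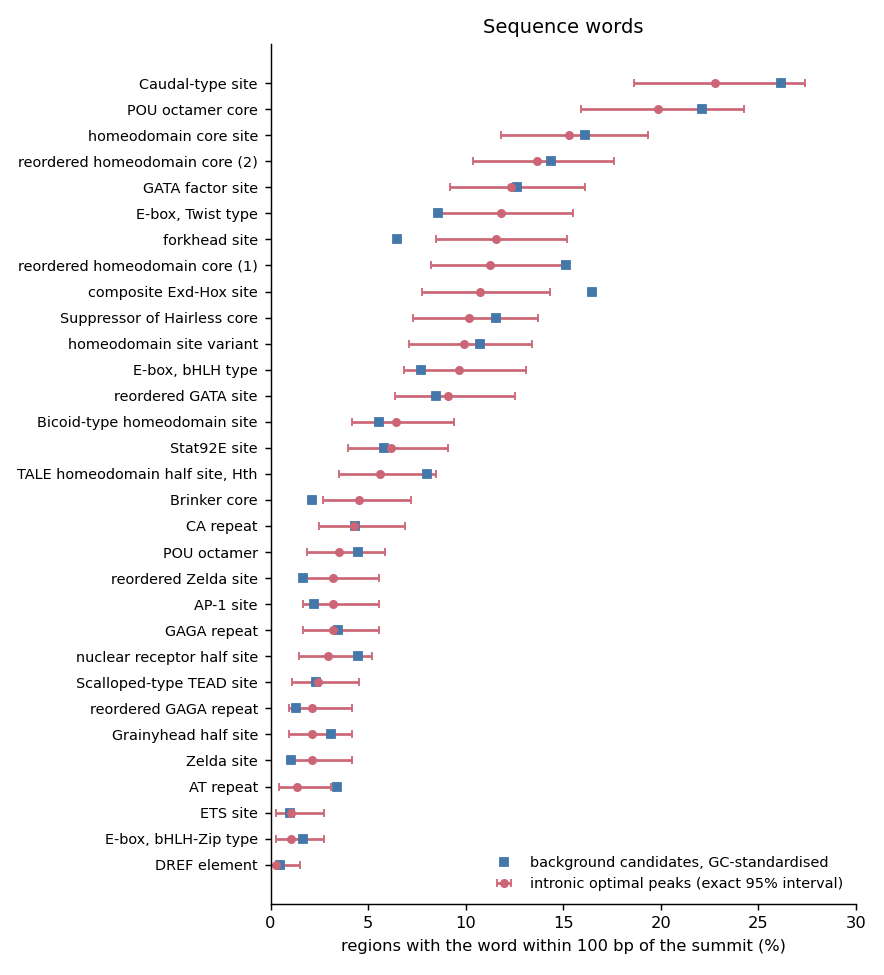
Circles give the percentage of the 373 members with each of 31 words within 100 bp of the summit, with exact 95% binomial intervals, and squares the percentage of background candidates standardised to the members' GC content. The forkhead site lies at 11.5% against 6.50% and the composite Exd-Hox site at 10.7% against 16.5%. For the homeodomain core site and the GAGA repeat the square lies within the interval. It also lies outside for reordered controls, namely ATTAAT (11.3% against 15.1%) and GATGCAG (3.22% against 1.65%). The same holds for the AT repeat (1.34% against 3.40%), the Brinker core GGCGCC (4.56% against 2.13%) and CATATG (11.8% against 8.58%).

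The GAGA repeat was scarce at the summits and more frequent in the flanks. GAGAGAG was in 12 members (3.22%, 1.67 to 5.55), against 4.95% of the background, 3.47% after standardisation and 2.65% of the windows. Within 50 bp of the summit it was in 3 of 373 members (0.804%, 0.166 to 2.33), compared with 5.23% (3.74 to 7.08) of windows 300 bp away. In the background these shares were 2.30% and 1.962%. The CA repeat CACACACA had a like pattern, with 1.07% at the summit and 4.83% at 300 bp in members and 2.76% and 3.23% in the background. The reordered control AAGGGAG was at 1.07% and 1.34% in members and at 1.03% and 1.01% in the background. None of these shares by place is adjusted for the dip in GC content, and the part of base composition was not tested. The difference of GAGAGAG from the standardised background changed with the window: -0.248 points within 100 bp and 5.64 points within 200 bp. In both cases GC content was matched within 100 bp of the summit only. The value for 200 bp is therefore not adjusted for the GC content of the flanks that it adds. Within 100 bp it was 2.56 points (0.406 to 5.48) with replicate 3 alone. Optimal peaks at 200 to 1000 bp held GAGAGAG in 9.26% of regions, and the members minus these peaks gave -6.04 points (-9.25 to -2.80). The strongest members with the word were Tlk (493), sima (153), which encodes the hypoxia-inducible factor alpha subunit, and trx (149).

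**Figure D5:**
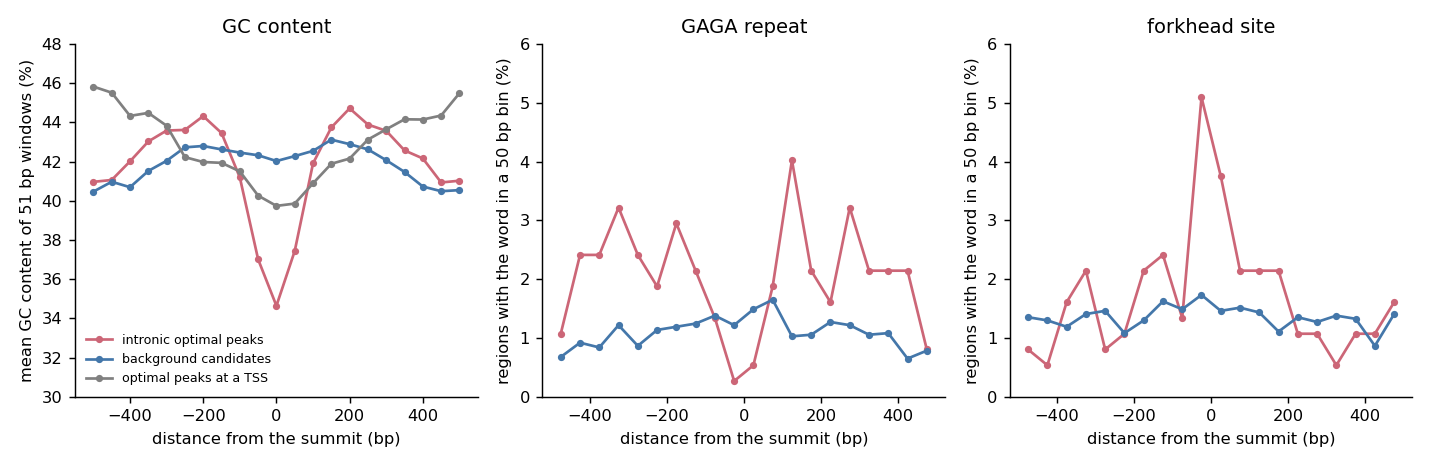
Mean GC content of 51 bp windows (left, in percent) and the percentage of regions with the GAGA repeat (centre) and the forkhead site (right) in 50 bp bins, against distance from the summit in bp; red, members; blue, background candidates; grey, optimal peaks within 200 bp of a TSS. GC content of the members dips to 34.6% at the summit, the GAGA repeat is lowest there, and the forkhead site is highest in the bins beside it. The word percentages are not adjusted for GC content.

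Among the other words, the Zelda site CAGGTAG was in 8 members (2.14%, 0.930 to 4.18), against 1.14% of the background, and its reordered control GATGCAG was in 3.22%. Zelda is the pioneer factor of early zygotic transcription. Members with the site included Nep1 (154), a neprilysin peptidase, and Mnt (115.4). CATATG, an E-box of the type bound by Twist, was in 11.8% of the members (8.70 to 15.5) and 7.77% of the background, 8.58% after standardisation. It was in 3.57% of the optimal peaks within 200 bp of a TSS, 8.22 points below the members (4.90 to 12.1). The E-box CAGCTG was in 9.65% of the members, 15% of the optimal peaks within 200 bp of a TSS and 3.33% of the intergenic ones. TATCGATA, the element bound by the promoter factor DREF, was in 1 member (0.268%) and in 8% of the peaks within 200 bp of a TSS, and the members minus these peaks gave -7.73 points (-9.99 to -5.56). The composite Exd-Hox site TGATNNAT was in 10.7% of the members and 16.5% of the standardised background.

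Over all 847 words of 6 bases common enough to be listed, each counted within 50 bp of the summit and in windows 300 bp away, the words with the highest ratio were ACACTG (10.5% and 3.08%, background 5.28% at the summit) and TATTAA (15.3% and 5.36%, background 9.80%). TAAACA, which is part of the forkhead site read from the other strand, was at 21.7% and 8.04%, with 11.2% in the background. GGAGGA had the lowest ratio, at 0.268% and 6.17%. These words were picked from the data for their ratios, and the shares are not adjusted for the dip in GC content.

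The distance limits of the rule cut through a continuous set of regions. The members nearest the lower limit were in Tak1 at 1007 bp (79.8) and Baldspot at 1015 bp (221), and the intronic optimal peaks just outside it were in chif at 995 bp (350) and vimar at 996 bp (70.8). At the upper limit the last members were in cno at 4982 bp (136) and ush at 4995 bp (222), and the first outside were in Mnt at 5017 bp (76.3) and Lrch at 5049 bp (146).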

How the data were processed

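Chromatin immunoprecipitation with sequencing covered 1 group with 2 biological replicates, per the labels. From the deposit, 4 dm6 peak lists were read: candidates for each replicate, candidates for the pool, and the authors' optimal peaks. Per the deposited README files, alignments and a control gave the candidates, and the optimal list was drawn from those 3 lists. For the aligner, the peak caller and the IDR threshold nothing is given in the sources used here. Signal is the authors' deposited value per region, on a scale that no source states. The summit offset is another column deposited by the authors, and the summit is the region's start plus this offset. The lists give no read counts, so depth is unknown.

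Gene models came from Ensembl release 115 (BDGP6.54) and sequence from the RefSeq Release 6 genome. Background candidates are pooled regions that overlap no optimal peak by at least 1 bp. Intervals are exact 95% binomial ones, and intervals of a difference are Newcombe's, except for differences from the standardised background. For these the members' exact interval was shifted by the standardised share, which was taken as free of error. Background word shares were standardised directly to the members' GC content in bins of 2 percent. Word shares and their standardisation were tested on simulated sequences with a planted forkhead site. The position lookup was checked against a direct search at random positions in genes of chromosome arm 2L. Python 3.11.15, numpy 2.4.6, pandas 2.3.3 and scipy 1.17.1 were used. No p-value is given.

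Members, the 24 gene lists and the 31 words were chosen with earlier results of these data known. Of 518 listed names, 513 matched a gene, 17 of them by synonym. A gene list and a sequence are not reported here. Regions named are the 12 strongest members, the genes with most members (up to 8), up to 3 members per list, those at the limits, those that differ most between replicates and the 3 strongest for a word. Others were chosen after their values were seen. Alternatives were the 2153 strongest candidates of each replicate alone, the stronger part of the optimal peaks (at or above their median signal), other distances, start sites of any gene, other windows for words and an overlap of 50%. The dm3 lists were not used.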

Additional observations from a re-analysis of the deposited data

How the results depend on the processing

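Of 77 recomputed values, 7 moved beyond counting error or changed a count by more than the limit set for it, and the other 70 did not. With only the stronger part of the optimal peaks there were 188 members, 10.8 per Mb and 9.63% of candidate genes with a member, as fewer peaks enter, and the GC dip was -10.6 points. Counting the first intron of any transcript raised the first-intron difference to 13.8 points. For GAGAGAG the difference from the standardised background, -0.248 points with an interval that includes 0, changed sign. It was 5.64 points in the 200 bp window, where GC content was still matched within 100 bp of the summit only. With a replicate left out it ranged from 0.934 to 2.56 points, the latter without replicate 2. The cause was not tested. Leaving out a replicate gave 356 to 368 members, a difference in X share of 7.40 to 9.28 points, a forkhead excess of 3.16 to 4.25 points and a TAATTA difference of -1.94 to 1.09 points. No paired analysis was possible because there is 1 group. Read depth is unknown, rare words rest on few regions, and small gene lists move by up to 3 genes.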
